A study of Mus musculus with 6 samples.

Results

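The proteasome genes of 6 mouse aorta libraries are described here. They were taken as every gene whose KEGG pathway entry in the deposited table names the proteasome, 46 of the 33919 genes in the table, and 43 of them had enough counts to be tested. The 3 libraries labelled WT and the 3 labelled KO all came from mice treated with Ang II (angiotensin II), the hormone peptide used to raise blood pressure and thicken vessel walls. The series title names OTUD1, an enzyme that removes ubiquitin, in endothelium, and SMAD3, which carries TGF-beta signals to the nucleus; the comparison asks how the genotype altered gene expression under Ang II. The knockout is labelled only as KO. The sources used here do not give its allele, the part deleted, the cell type of the deletion, the strain, age and sex, or the dose and duration of Ang II. The series describes 3 mice in each group, but no label ties a library to an animal, so each p-value measures only how these libraries spread.

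Several facts of the whole series bear on every value below. Total counts ran from 62.3 to 71.5 M (megacounts) per library. Counts outside mitochondrial genes were 17.3 to 19.4 M in the libraries labelled WT and 22.97 to 23.4 M in those labelled KO. The deposited FPKM values used below divide counts by gene length and library total. The part of this split between the labels in the FPKM results was not tested. Otud1 counts were 593, 699 and 615 under the WT label against 1033, 1141 and 1223 under the KO label, 1.55-fold higher in the second group (adjusted p = 0.00388, edgeR), which goes against a loss of its RNA. The labels state neither that Otud1 is the gene knocked out nor which part of it was deleted, and directions are therefore those of the libraries as labelled, which is all that "WT library" and "KO library" mean below. The tissue is labelled aorta, while the RNA protocol speaks of an adipose type. A set of 20 skeletal muscle genes summed to 27686 to 28213 CPM (counts scaled to a common library total) in the libraries labelled WT and to 35110 to 36274 CPM in those labelled KO. A set of 10 smooth muscle genes, the markers of the aortic media, summed to 669.6 to 670.8 and to 222.3 to 227.0 CPM. A set of 10 fibroblast genes summed to 624 to 653 and to 214 to 240 CPM. In bulk tissue such as this, fewer cells of a type and less RNA per cell cannot be told apart.

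The proteasome is the protease that degrades proteins tagged with ubiquitin. Its 20S core is a barrel of stacked rings, with outer rings of alpha subunits that gate the entrance and inner rings of beta subunits that carry the proteolytic sites. The 19S cap binds ubiquitin chains, removes them, and unfolds and threads the substrate by means of a ring of ATPases. Core and cap together are the 26S proteasome. In cells exposed to interferon-gamma and in immune cells, the catalytic beta subunits are exchanged during assembly for the immunosubunits Psmb8, Psmb9 and Psmb10, which favour peptides that bind MHC class I. Other caps, PA28 and PA200, open the core without ubiquitin. When proteasome activity is short, the transcription factor NRF1, encoded by Nfe2l1, is known to raise the genes of core and cap together. Striated muscle relies on the proteasome for the turnover of its contractile proteins.

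Genes of the constitutive core and cap were higher in the libraries labelled KO, while the immunosubunits and Psme1 were lower. Of the 43 tested genes, 30 rose and 5 fell at an adjusted p of 0.05 (edgeR's quasi-likelihood test, adjusted over all 16620 tested genes), and 8 did not pass. Among all tested genes 22.0% passed in either direction, 11.5% (1907 genes) higher and 10.5% (1751 genes) lower. The 43 genes had a median log2 fold change of 0.52, against -0.02 for all tested genes. The balance of directions over all genes depended on the scaling. On the deposited FPKM as given, limma called 2708 of 8308 genes higher (32.6%) and 736 lower (8.86%), with a median gene at 0.15. There 34 of the proteasome genes were higher and 3 lower. After median-ratio scaling of the same FPKM, limma called 1505 genes higher and 1484 lower, with a median gene at -0.003.

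**Figure D1:**
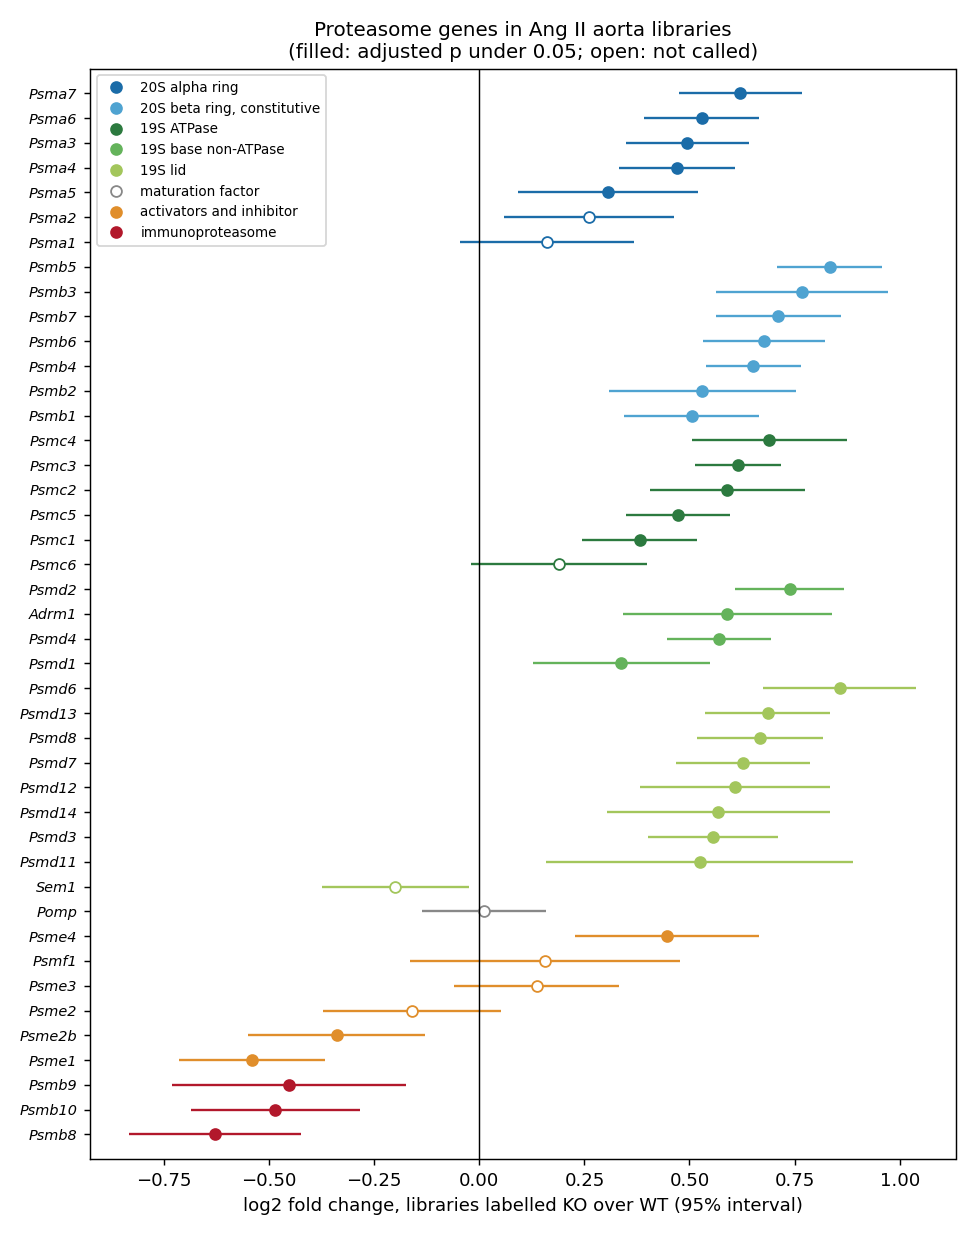
Each row is a tested proteasome gene, and the horizontal axis is its log2 fold change in the libraries labelled KO over those labelled WT (3 each), with its 95% interval. Filled points passed an adjusted p of 0.05; all core and cap genes but Sem1 (-0.20) lie to the right of 0, between 0.16 and 0.86, and the immunosubunits lie between -0.63 and -0.45.

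The shift of the 26S subunits was shared across libraries and by most of the subunits. Core and cap together have 34 constitutive genes here, of which 33 were tested, 29 rose and 0 fell. The median change was 0.57 on the log2 scale, or 1.48-fold, and the 3 values labelled KO all exceeded the 3 labelled WT in 30 of the 33, against 19.3% of all tested genes. The same genes summed to 1341 ± 25.9 CPM in the libraries labelled WT and to 1983 ± 16.1 CPM in those labelled KO (SD, n = 3 each). Relative to the mean of the libraries labelled WT, the median subunit stood at 0.02, -0.03 and 0.00 (log2) in the libraries labelled WT and at 0.56, 0.60 and 0.58 in the libraries labelled KO. In each library labelled KO, 32 of the 33 subunits lay above the WT mean. Their log2 changes ran from -0.20 to 0.86 with an SD of 0.213, above the median standard error of a subunit, 0.072. The SD over all tested genes was 1.01, but that set includes genes of far lower counts, with changes from -12.2 to 10.3.

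**Figure D2:**
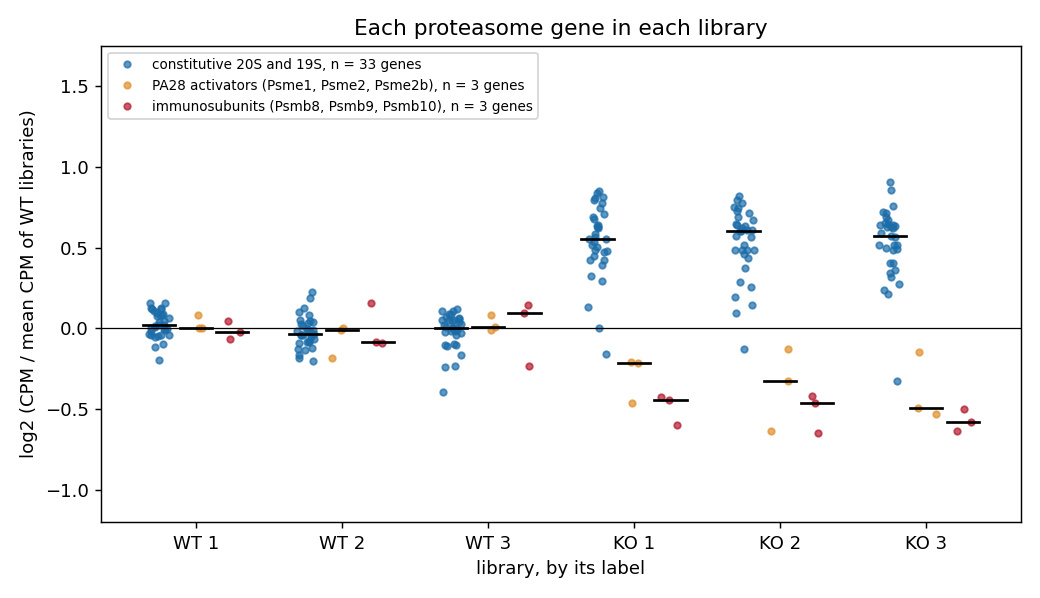
The horizontal axis gives the 6 libraries by their labels, and the vertical axis gives the log2 of each gene's CPM over its mean in the libraries labelled WT; points are genes and bars are medians. The 33 constitutive subunits stand at medians of 0.56, 0.60 and 0.58 in the libraries labelled KO, and the 3 immunosubunits lie below 0 there.

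In the 20S core, all 7 constitutive beta genes rose and 5 of the 7 tested alpha genes did. The median log2 change was 0.68 in the beta ring and 0.47 in the alpha ring, a difference that was not tested. Psmb5 encodes the beta subunit with the chymotrypsin-like site (chromosome 14, 54614119 to 54618022, minus strand, GRCm38). It had 70.2, 62.6 and 66.6 CPM in the libraries labelled WT and 119.8, 115 and 120.3 CPM in those labelled KO. The groups were far apart, with a log2 fold change of 0.83 (SE 0.0567, 1.78-fold, adjusted p = 2.39e-06). Psmb3, a structural beta subunit (chromosome 11, 97703399 to 97713500, plus strand), had 37.7, 34.7 and 28.7 CPM and then 58.4, 56.7 and 57.1 CPM. The libraries labelled WT varied more than those labelled KO and did not overlap them (0.77 on the log2 scale, SE 0.0928, adjusted p = 0.000168). Psmb7, which carries the trypsin-like site (chromosome 2, 38588036 to 38644087, minus strand), had 37.1, 42.4 and 39.2 CPM and then 66.3, 63.1 and 65.03 CPM, a 1.64-fold rise (adjusted p = 2.86e-05). Psmb6, which carries the caspase-like site (chromosome 11, 70525367 to 70527858, plus strand), had 68.7, 61.6 and 58.5 CPM and then 101, 103 and 98.3 CPM, a 1.60-fold rise (adjusted p = 3.32e-05). The genes of all 3 constitutive proteolytic sites thus rose by between 1.60-fold and 1.78-fold. The structural subunits Psmb4, Psmb2 and Psmb1 rose by 0.65, 0.53 and 0.51 on the log2 scale.

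Among the alpha genes, which form the gated outer rings, Psma7 rose by 0.62, Psma6 by 0.53, Psma3 by 0.49, Psma4 by 0.47 and Psma5 by 0.31 on the log2 scale. The call of Psma5 (adjusted p = 0.0446) was lost without WT library 1, WT library 2 or any single library labelled KO, with adjusted p values of 0.0800 to 0.141, and in 11 of 20 alternatives in all. Psma2 had 25.2, 25.2 and 27.1 CPM and then 33.9, 27.6 and 31.3 CPM, with no overlap and an adjusted p of 0.0672, which became 0.0357 without KO library 2 and 0.00738 with DESeq2. It passed in 5 of 20 alternatives in all. Psma1 moved by 0.16 (95% interval -0.04 to 0.37, adjusted p = 0.265) and passed with limma on the deposited FPKM (0.0189 to 0.0475 over 3 settings). Psma8, the alpha subunit of the testis, was too low to test, with counts of 4, 30 and 8 under the WT label and of 0, 7 and 12 under the KO label.

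In the 19S cap, 17 of 19 genes rose, with a median log2 change of 0.59. Of the 6 ATPase genes, whose products form the ring that unfolds substrates, 5 rose: Psmc4 by 0.69, Psmc3 by 0.61, Psmc2 by 0.59, Psmc5 by 0.47 and Psmc1 by 0.38 on the log2 scale. Psmc6 moved by 0.19 (95% interval -0.02 to 0.40, adjusted p = 0.194) and passed only when WT library 2 was left out (0.0459) or with limma on the deposited FPKM (0.0129 to 0.0350 over 3 settings). All 4 other genes of the base rose. Psmd2, the large scaffold that docks shuttle proteins (chromosome 16, 20651652 to 20663414, plus strand), had 66.5, 62.1 and 67.8 CPM and then 112, 112 and 103 CPM. The lowest KO library stood well above the highest WT library (0.74 on the log2 scale, SE 0.0589, adjusted p = 7.87e-06). The ubiquitin receptors Adrm1 and Psmd4 rose by 0.59 and 0.57. Psmd1, the other large scaffold, rose by 0.34 (adjusted p = 0.0266), a call lost without WT library 2, WT library 3, KO library 1 or KO library 2 (0.0706 to 0.117), and in 7 of 20 alternatives in all.

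The lid, which holds the deubiquitinating enzyme and its scaffold, had 8 of 9 genes higher. Psmd6, a lid scaffold subunit (chromosome 14, 14112174 to 14120984, minus strand), had the largest change of any proteasome gene in this fit. It had 19.7, 19.3 and 17.5 CPM in the libraries labelled WT and 33.7, 33.3 and 35.3 CPM in those labelled KO, with a gap between the groups wider than either group's range (0.86 on the log2 scale, SE 0.0821, 1.81-fold, adjusted p = 3.06e-05). Psmd14, the deubiquitinating enzyme of the lid, rose by 0.57 (adjusted p = 0.00599). Psmd13, Psmd8, Psmd7, Psmd12 and Psmd3, which build the lid, rose by 0.69, 0.67, 0.63, 0.61 and 0.56. Psmd11 rose by 0.52 (adjusted p = 0.0442), a call lost without WT library 1, WT library 3, KO library 1 or KO library 3 (0.0774 to 0.145), and in 10 of 20 alternatives in all. Sem1, the smallest lid protein, was the exception, at 55.8, 48.1 and 53.7 CPM in the libraries labelled WT and 47.1, 48.2 and 41.9 CPM in the libraries labelled KO. The groups overlapped and the change of -0.20 did not pass here (adjusted p = 0.103), though DESeq2 called it lower (0.0233), as did 3 other alternatives (0.0195 to 0.0452).

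The immunosubunits moved the other way: 3 of 3 tested genes fell, with a median log2 change of -0.48. Psmb8, the replacement for Psmb5 (chromosome 17, 34197721 to 34201454, plus strand), had 23.98, 23.6 and 27.7 CPM in the libraries labelled WT and 16.6, 16.01 and 16.2 CPM in those labelled KO. The libraries labelled KO were nearly alike and all lower, 1.55-fold in the fit (log2 -0.63, SE 0.0924, adjusted p = 0.000656). Psmb10, the replacement for Psmb7 (chromosome 8, 105935735 to 105938104, minus strand), had 23.9, 22.96 and 25.97 CPM and then 18.1, 17.7 and 16.3 CPM, 1.40-fold lower with no overlap (adjusted p = 0.00298). Psmb9, the replacement for Psmb6 (chromosome 17, 34181987 to 34187764, minus strand), had 11.9, 12.8 and 9.75 CPM and then 8.44, 8.58 and 8.10 CPM. It was 1.37-fold lower (adjusted p = 0.0251), and its call was lost without WT library 1, WT library 2 or any single library labelled KO (0.0617 to 0.0968) and with limma on the deposited FPKM (0.0735 to 0.156 over 3 settings). Psmb8 and Psmb10 lost their calls only with limma on FPKM without a low-value filter (0.0591 and 0.134), where none of the 3 passed. The groups did not overlap in any of the 3, as in 19.4% of all tested genes with the libraries labelled KO below. Together with the thymus-specific Psmb11, which had 6 counts in WT library 1 and 0 elsewhere, they summed to 60.9 ± 2.23 CPM and to 42.0 ± 1.33 CPM (SD, n = 3 each). For Psmb11 a count of 0 allows up to 12 deposited counts, or 0.164 to 0.200 CPM per library, for counting error only.

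Because each immunosubunit takes the place of 1 constitutive subunit, the pairs were compared within each library by deposited FPKM, which divides counts by gene length and library total. Psmb8 made up 8.32%, 9.11% and 9.96% of the summed FPKM of Psmb8 and Psmb5 in the libraries labelled WT, against 3.55%, 3.55% and 3.45% in the libraries labelled KO. The log2 ratio of Psmb8 to Psmb5 differed by -1.46, a 2.75-fold lower ratio in the libraries labelled KO. Psmb9 made up 8.10%, 9.58% and 7.83% of its pair with Psmb6 and then 4.10%, 4.07% and 4.04%, a 2.18-fold lower ratio. For Psmb10 with Psmb7 the shares were 56.4%, 52.01% and 57.02% and then 35.4%, 35.9% and 33.3%, a 2.29-fold lower ratio. In all 3 pairs every WT library exceeded every KO library. An exact two-sided permutation test over libraries gave p = 0.1 for each, also after adjustment over the 4 ratios tested, which is the smallest p that 3 against 3 allows. The shares depend on the length used. The deposited FPKM counts all annotated exons of a gene, and over the length of the mRNA with the longest coding sequence (GENCODE M21) Psmb10 had 36.3%, 32.4% and 36.9% and then 19.5%, 19.9% and 18.1% of its pair. By that length Psmb8 had 15.9%, 17.3% and 18.7% and then 7.10%, 7.13% and 6.91%. Length cancels in the difference between groups.

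**Figure D3:**
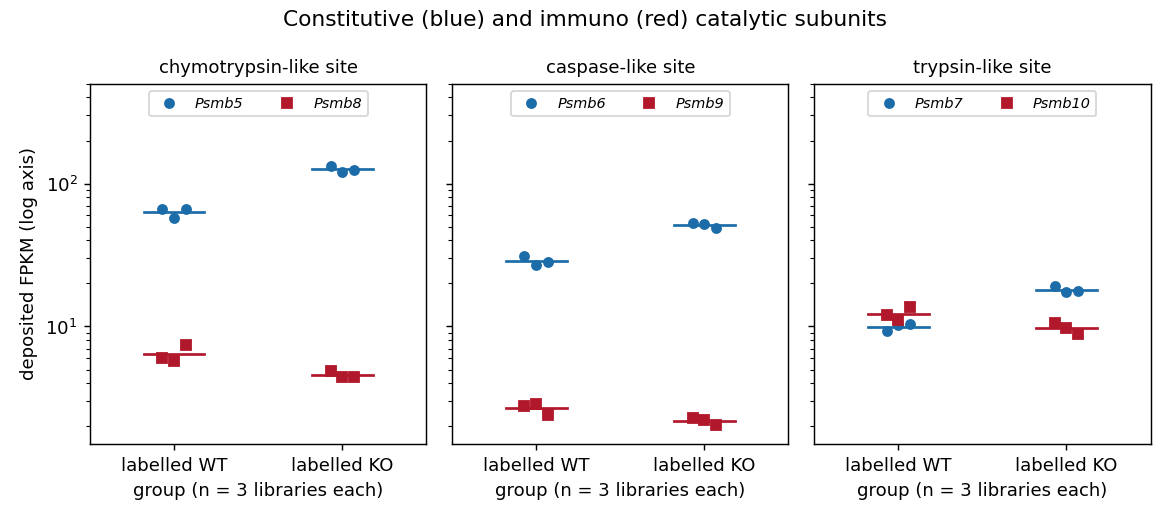
Each panel shows 1 proteolytic site, with deposited FPKM on a log vertical axis for the constitutive subunit (circles) and the immunosubunit that replaces it (squares) in the 3 libraries of each group; bars are group means. The constitutive subunit is higher and the immunosubunit lower in the libraries labelled KO at every site, and the ratio of the pair is 2.18-fold to 2.75-fold lower.

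Summed over each set, markers of antigen-presenting cells, macrophages and lymphocytes, which carry immunosubunits, were lower in the same libraries, though many single genes did not pass. A set of 8 antigen-presenting genes summed to 217.6 to 227.8 CPM in the libraries labelled WT and to 59.6 to 71.8 CPM in those labelled KO, with 5 of 8 lower and 0 higher. The genes called were Cd74, H2-Aa, H2-Ab1, H2-Eb1 and Ciita, all of MHC class II presentation. Flt3, Itgax and Xcr1 changed by 0.99, 0.38 and -0.87 (log2) at low counts and were not called. A set of 12 macrophage and monocyte genes summed to 234.8 to 244.7 and to 165.8 to 170.7 CPM, with 6 of 12 lower and 0 higher. Lyz2, the most abundant of them, had means of 91.0 and 52.7 CPM. C1qa, C1qb and Cd68 changed by -0.09, -0.07 and 0.41 (log2) and were not called. B cell genes (7, of which 6 tested) summed to 25.3 to 28.2 and to 8.50 to 11.2 CPM, with 1 of 6 lower. Most of that sum was Ighm, the gene called, with means of 22.0 and 7.35 CPM, while Cd79a and Cd79b changed by 0.01 and -0.02 (log2). T and NK cell genes (12, of which 7 tested) summed to 3.40 to 3.84 and to 0.992 to 1.55 CPM, with 1 of 7 lower. These shares of 16.7% and 14.3% are near the 10.5% of all tested genes that fell. No gene of these 4 sets was at 0 in all 6 libraries. Neutrophil genes went the other way, from 2.38 to 3.49 up to 25.9 to 30.2 CPM, with Camp at 0 in all 6. The part of these cells in the fall of the immunosubunits was not tested. Beside the rise of core and cap, 13 of the 20 skeletal muscle genes rose and 4 fell, 4 of 8 brown adipocyte genes rose and 2 fell, and 9 of 10 genes each of smooth muscle and of fibroblasts fell. The part of these in the rise was not tested either.

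Of the 6 genes of activators and their regulator, 1 rose, 2 fell and 3 did not pass. The share higher, 16.7%, is near the 11.5% of all tested genes, and 33.3% were lower, against 10.5%. Psme1, the alpha subunit of the interferon-inducible cap PA28 (chromosome 14, 55578123 to 55581528, plus strand), had 32.4, 32.1 and 32.6 CPM in the libraries labelled WT and 23.5, 20.8 and 22.5 CPM in the libraries labelled KO. The libraries labelled WT were nearly identical and the libraries labelled KO all lower (1.46-fold, log2 -0.54, SE 0.0788, adjusted p = 0.000612). Its partner Psme2 had 24.3, 20.2 and 24.3 CPM and then 19.9, 21.01 and 20.8 CPM, with overlapping groups (log2 -0.16, 95% interval -0.37 to 0.05, adjusted p = 0.282). The log2 ratio of Psme2 to Psme1 FPKM was higher by 0.39 in the libraries labelled KO (exact permutation p = 0.1, the smallest possible). Psme2b, an intronless near-copy of Psme2, had 21.7, 21.7 and 21.5 CPM and then 18.7, 17.3 and 15.4 CPM. It was 1.27-fold lower (adjusted p = 0.0261), a call lost without any single WT library, KO library 2 or KO library 3 (0.0610 to 0.0989) and with limma on the deposited FPKM (0.165 to 0.366 over 3 settings). The sources used here do not say how the counting divided reads between Psme2 and Psme2b, so both values are uncertain.

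Psme4 encodes PA200, a nuclear cap that acts without ubiquitin (chromosome 11, 30771726 to 30880361, plus strand), and was the only activator that rose. It had 26.6, 29.1 and 25.6 CPM and then 31.9, 38.1 and 40.8 CPM, 1.36-fold higher with no overlap (log2 0.45, adjusted p = 0.00815). Psme3, the nuclear PA28 subunit that interferon does not induce, had 18.1, 17.00 and 16.7 CPM and then 18.97, 19.9 and 18.1 CPM (log2 0.14, 95% interval -0.06 to 0.33, adjusted p = 0.328), and passed with limma on the deposited FPKM at either pseudocount (0.0366 and 0.0377). Psmf1, which encodes the regulator PI31, had 6.05, 5.74 and 5.66 CPM and then 6.37, 5.80 and 7.27 CPM (log2 0.16, 95% interval -0.16 to 0.48, adjusted p = 0.509). Pomp, the chaperone that matures the beta rings, had 48.04 ± 2.50 CPM and 48.4 ± 1.90 CPM (SD, n = 3 each). Its log2 change of 0.01 (95% interval -0.14 to 0.16, adjusted p = 0.936) fell on either side of 0 with other scalings. Ifng, the interferon gene that the pathway entry includes, had 0 counts in all 6 libraries, which allows up to 0.164 to 0.200 CPM.

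Levels per length ranged widely among genes whose products are present in equal number in the complex. By CPM per kb of mRNA, Psmb6 stood at 78.9 ± 6.54, Psmd4 at 78.8 ± 4.87 and Psmb5 at 73.9 ± 4.23 in the libraries labelled WT, and these did not differ beyond their spread. In the libraries labelled KO, Psmb5 stood at 132 ± 3.13 and Psmb6 at 126 ± 3.01, with overlapping values. The lowest tested constitutive core gene was Psma2, at 8.87 ± 0.375 and 10.6 ± 1.09, and the lowest cap gene was Psmd11, at 3.53 ± 0.754 and 5.07 ± 0.703 (SD, n = 3 each). In deposited FPKM, among the tested constitutive core genes, Psmb5 was the most abundant (66.7, 57.2 and 66.9, then 132, 121 and 124) and Psma2 the least (5.86, 5.63 and 6.66, then 9.16, 7.08 and 7.90). These ranks depend on annotated lengths. Without length, Psma2 had a mean of 25.8 CPM in the libraries labelled WT, above Psma5 (13.9) and Psmb2 (16.4). All annotated exons span 899 bases in Psmb5 and 1872 in Psmb6, against mRNAs of 899 and 798.

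The 46 genes lie on 17 chromosomes. Psmb8 and Psmb9 lie 9956 bases apart on chromosome 17 beside Tap1 and Tap2, which encode the transporter that carries peptides to MHC class I. Tap1 starts head to head with Psmb9, with gene bodies that overlap by 212 bases. Tap1 changed by -0.20 (adjusted p = 0.258) and Tap2 by -0.30 (adjusted p = 0.104) on the log2 scale, without passing the test. Psme1 and Psme2 lie 5912 bases apart on chromosome 14.

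Core and cap genes rose together while the immunosubunits and Psme1 fell. Promoter sequences of some of these genes are therefore shown, each holding a searched motif. They are RefSeq windows (GRCm38.p6) from 250 bases before to 50 after the start site, 5′ to 3′ on the gene's strand, where the RefSeq start can differ from the gene's start in the table, and capitals mark a searched motif: for Psmb5 (chr14:54617946-54618245, minus) and Psmb6 (chr11:70525107-70525406, plus) the antioxidant response element core TGACNNNGC, to which NRF1 binds, 47 and 9 bases before the start. For Psmb8 (chr17:34197945-34198244, plus) capitals mark the gamma-activated sequence TTCNNNGAA, 97 bases before the start. For Psmb9 (chr17:34187281-34187580, minus) they mark a CCAAT box on the other strand, 8 bases before the start, and for Psme1 (chr14:55578244-55578543, plus) the interferon-stimulated response element core GAAANNGAA on the other strand, 10 bases after the start. Psmb10, an immunosubunit that also fell, has a window without any of these motifs and is not printed.
Psmb5: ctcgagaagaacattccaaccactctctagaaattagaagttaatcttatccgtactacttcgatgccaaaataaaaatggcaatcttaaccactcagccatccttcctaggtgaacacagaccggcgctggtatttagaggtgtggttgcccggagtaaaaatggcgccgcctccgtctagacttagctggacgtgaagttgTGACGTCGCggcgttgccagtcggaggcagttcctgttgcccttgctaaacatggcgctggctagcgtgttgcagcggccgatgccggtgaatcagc
Psmb6: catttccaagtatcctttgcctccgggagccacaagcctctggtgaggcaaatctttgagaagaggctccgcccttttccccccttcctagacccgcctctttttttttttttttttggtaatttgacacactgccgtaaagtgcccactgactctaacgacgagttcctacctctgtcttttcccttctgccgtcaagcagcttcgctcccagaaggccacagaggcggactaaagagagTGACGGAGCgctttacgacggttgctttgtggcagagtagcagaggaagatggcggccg
Psmb8: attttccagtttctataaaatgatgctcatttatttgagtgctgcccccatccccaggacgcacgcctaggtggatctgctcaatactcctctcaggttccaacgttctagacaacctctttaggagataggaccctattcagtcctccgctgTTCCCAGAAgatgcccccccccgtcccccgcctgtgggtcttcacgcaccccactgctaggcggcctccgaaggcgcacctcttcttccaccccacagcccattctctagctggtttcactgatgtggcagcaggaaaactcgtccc
Psmb9: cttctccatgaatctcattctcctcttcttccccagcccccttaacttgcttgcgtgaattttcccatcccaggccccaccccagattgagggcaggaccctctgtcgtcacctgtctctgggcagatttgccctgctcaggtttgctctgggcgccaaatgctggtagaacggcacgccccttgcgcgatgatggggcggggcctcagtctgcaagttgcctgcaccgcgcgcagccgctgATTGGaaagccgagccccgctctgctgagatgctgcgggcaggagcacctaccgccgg
Psme1: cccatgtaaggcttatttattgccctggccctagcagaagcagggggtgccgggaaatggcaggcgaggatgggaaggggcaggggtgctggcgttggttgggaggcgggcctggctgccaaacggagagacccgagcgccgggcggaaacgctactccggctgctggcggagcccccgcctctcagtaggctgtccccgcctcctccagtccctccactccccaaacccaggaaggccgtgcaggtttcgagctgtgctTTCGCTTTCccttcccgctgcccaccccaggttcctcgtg

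The motifs stood in proteasome promoters at shares not far from those over all promoters. RefSeq windows were found for 39 of the 46 genes, giving 42 promoters, and both strands were searched. The letters TGACNNNGC stood in 7 of 42 (16.7%), against 12.4% of 32851 promoters of the same length. They were in the windows of Adrm1, Psmb5, Psmb6, Psmd12 and Psme4, which rose, and of Psmc6 and Sem1, which did not pass. GAAANNGAA stood in 6 of 42 (14.3%, against 8.56%), those of Psme1, which fell, of Psmb3, Psmb4, Psmc2 and Psmd4, which rose, and of Pomp. TTCNNNGAA stood in 3 of 42 (7.14%, against 8.30%), those of Psmb8, Psmd2 and Ifng. CCAAT stood in 14 of 42 (33.3%, against 37.4%). Of the tested genes with a window, 24 rose, 5 fell and 8 did not pass. TGACNNNGC was in 5, 0 and 2 of these, and GAAANNGAA in 4, 1 and 1. TTCNNNGAA was in 1, 1 and 0, and CCAAT in 9, 1 and 3. Whether a motif went with the direction of change was not tested. The windows of Psmb9 and Tap1 share 275 bases. Each window printed holds a single match to the motifs searched, so no matches overlap there, and a match describes letters, not a bound site.

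Genes that work with the proteasome had smaller median changes than core and cap, a difference that was not tested. Of 9 tested assembly chaperones only Fbxo7, which also binds PI31, rose (7.63, 6.55 and 6.68 CPM, then 9.81, 10.7 and 9.35 CPM, adjusted p = 0.0124), a call lost without KO library 2 (0.0557). The list's median was 0.17, and its share of 11.1% higher is near the 11.5% of all tested genes that rose. Psmg4 and Psmg1, parts of the chaperones that build the alpha ring, changed by -0.68 (adjusted p = 0.0638) and 0.41 (adjusted p = 0.0917), which DESeq2 called (0.0149 and 0.0300). Psmg4 also passed without WT library 1 (0.0302) and with edgeR's robust setting (0.0487). Of 9 tested genes of the NRF1 axis, which make, process or free this factor, 3 rose and 0 fell (median 0.12). The share that rose was 33.3%, against 11.5% of all tested genes. Nfe2l1 itself had 127, 124 and 122 CPM and then 171, 158 and 171 CPM, 1.34-fold higher with no overlap (adjusted p = 0.000102). Vcp, the ATPase that extracts NRF1 from the endoplasmic reticulum, and its cofactor Nploc4 rose by 0.52 and 0.51 on the log2 scale. The protease Ddi2, which cleaves NRF1 into its active form, had 13.98, 13.1 and 15.4 CPM and then 16.6, 16.3 and 14.99 CPM (adjusted p = 0.262), and is named here outside the rule for naming genes.

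Of 13 enzymes and shuttles that bind the proteasome, 6 rose and 1 fell (median 0.27). These shares of 46.2% and 7.69% compare with 11.5% and 10.5% of all tested genes. Zfand5, a proteasome-binding protein induced in muscle wasting, rose by 0.54, and Ecpas, an adaptor of the 26S complex, by 0.44 on the log2 scale. Zfand2a, which is induced by arsenite and binds the proteasome, fell (-0.59, adjusted p = 0.0216, chosen after its values were seen as the only gene of the list that fell). Of 6 ubiquitin and E1 genes, 4 rose (66.7%, against 11.5% of all tested genes) and 0 fell (median 0.22). Uba1, the enzyme that activates ubiquitin, rose by 0.34 on the log2 scale.

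Genes of the class I antigen route lay on the side of the immunosubunits. Of 11 tested, 4 fell (36.4%, against 10.5% of all tested genes) and 0 rose (median -0.24). H2-K1, a class I heavy chain, had 211, 220.1 and 224 CPM and then 176, 177 and 169 CPM, with no overlap (log2 -0.33, adjusted p = 0.000280). Pdia3 and Calr, which help load peptides on class I, fell by 0.55 and 0.25 on the log2 scale. The call of Calr (adjusted p = 0.0258) was lost without WT library 3 or any single library labelled KO (0.0572 to 0.0953). H2-K1 and Calr did not pass with limma on the deposited FPKM (0.0872 to 0.201 and 0.472 to 0.590 over 3 settings). Of 9 genes of interferon-gamma signalling, 1 fell and 0 rose (median -0.24), and this share of 11.1% is near the 10.5% of all tested genes that fell. That gene was Irf8, a transcription factor of myeloid and B cells, at 3.66, 2.48 and 5.98 CPM and then 1.60, 2.53 and 1.47 CPM. Its groups overlapped, and its call (adjusted p = 0.0397) was lost without WT library 1, WT library 3, KO library 1 or KO library 3 (0.0744 to 0.184), and in 7 of 16 alternatives in all. Irf9, which carries interferon signals to the nucleus, changed by -0.31 (adjusted p = 0.0768). DESeq2 called it lower (0.0345), as did edgeR with a mean CPM of at least 1 (0.0477).

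**Figure D4:**
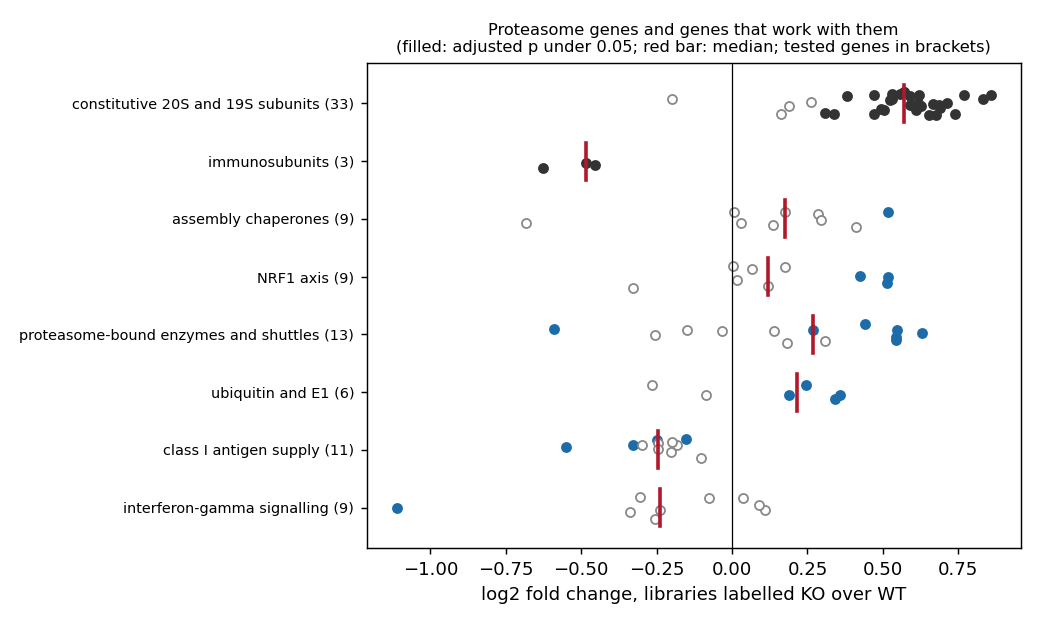
Each row is a list of tested genes (number in brackets), the horizontal axis is the log2 fold change of the libraries labelled KO over those labelled WT, and red bars are medians. Core and cap genes cluster around 0.57, the 4 lists of proteasome partners have medians of 0.12 to 0.27, and immunosubunits, class I antigen supply and interferon-gamma signalling have medians of -0.48, -0.24 and -0.24.

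Other large complexes give a scale for the rise. Of 131 tested ribosome genes, 44 rose and 6 fell, with a median log2 change of 0.15. Of 124 genes of oxidative phosphorylation, 54 rose and 21 fell (median 0.16), and of 128 spliceosome genes, 9 rose and 7 fell (median 0.01). The oxidative phosphorylation set summed to 592770 CPM in WT library 1, more than genes outside the mitochondrial ones supply. It therefore includes mitochondrial genes, and their part in its calls was not tested. The spliceosome shares of 7.03% and 5.47% lie below the 11.5% and 10.5% of all tested genes. The difference between these medians and the 0.57 of core and cap was not tested.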

How the data were processed

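Poly(A) RNA from 6 mouse libraries was sequenced on an Illumina machine with paired ends (per the labels' protocols). The table the authors deposited holds whole-number counts per gene, without normalization, and FPKM per the file headers. FPKM values divide the deposited counts by a length proportional to all annotated exons of the gene and by a library total. With the sum of deposited counts as that total, implied lengths of tested proteasome genes were 1.10 to 1.12 times those of GENCODE M21. This ratio was nearly constant within a library but differed between libraries (1.115 to 1.120 in WT library 1, 1.096 to 1.099 in KO library 3). The library total behind FPKM was therefore not exactly the sum of the deposited counts. Bowtie 0.12.2, HISAT2 2.0 and the build mm8 are named in the submitters' processing notes, and the sources used here give neither the counting program nor the strand setting. Gene positions in the table equal those of GRCm38 (GENCODE M21) for 85.9% of 33815 shared genes and 40 of the 46 proteasome genes, and are given as GRCm38. Of counts from 1 to 40, 33.0% to 34.9% were multiples of 4, against 25% if evenly spread. Most low counts were not multiples of 4, so the unit of a count is uncertain. A floor of 12 counts was used, which would be 3 read pairs if each were counted 4 times. Rows without a gene name and value columns of other samples numbered 0 each.

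Counts were tested with edgeR 4.0.16 in R 4.3.3: genes kept by filterByExpr, TMM scaling, a two-sided quasi-likelihood F-test on genotype, and p-values adjusted by Benjamini-Hochberg over 16620 genes, with calls at 0.05. CPM values are TMM-scaled. A gene that passed only through the group where it is higher had to differ; the lowest group mean among the 43 tested proteasome genes was 5.81 CPM. On data simulated for 16031 genes, the test recovered 21% of genes changed by 1.5-fold and 58% changed by 2-fold, with 3 false calls. Only 100 genes were changed at each fold, drawn from all genes above a mean of 1 CPM. These shares therefore do not measure the power for the proteasome genes, and fewer genes were changed than were called in the real data. Alternatives were limma 3.58.1 on log2(FPKM + 1) or log2(FPKM + 0.1), DESeq2 1.42.0, other scalings and filters (such as a mean CPM of at least 1), counts divided by 4, a replicate block, and each library left out. Named were all proteasome genes by role, with values per library for the immunosubunits, the activators and the 5 largest called changes in each direction, and up to 3 genes of each partner list by smallest p, of which some are not reported here. The genes and lists were chosen with earlier results of these data known. Promoters came from RefSeq. Protein sequences were not used here. Figures were drawn with matplotlib 3.10.9.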

Additional observations from a re-analysis of the deposited data

How the results depend on the processing

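Of 856 values of the 43 proteasome genes under the alternatives, 784 kept both direction and side of the threshold, 18 gained a call, 46 lost one and 8 reversed, and 29 genes kept both in all 20 alternatives. The reversed values are all of Pomp, whose values crossed 0: -0.012 with upper quartile scaling, -0.0125 with a mean CPM of at least 1, -0.0018 with counts divided by 4, and -0.0457 and -0.0560 with median-ratio and quantile scaling of FPKM. Without single libraries Pomp ranged from -0.0307 to 0.0474, below 0 without WT library 2, KO library 1 or KO library 2. Proteasome genes called higher numbered 27 to 34 across settings, and the median of core and cap ran from 0.42 (quantile normalization) to 0.72 (log2(FPKM + 0.1)). Against 5 proteasome genes called lower here, limma on FPKM called 3 with either pseudocount and 1 without a filter, and fits without single libraries called 3 or 4. All genes called lower numbered 2650 with DESeq2, 736 and 727 with limma at pseudocounts of 1 and 0.1, and 754 with limma without a filter; of the genes called, the higher ones made up 52.1% here, 78.6% on the deposited FPKM, and 50.4% and 51.6% after median-ratio and quantile scaling. Partner genes called lower numbered 6 here, 15 with DESeq2, 12 with a mean CPM of at least 1, 11 with counts divided by 4, 2 with limma at either pseudocount, 0 with limma without a filter, 12 and 10 after median-ratio and quantile scaling, and 2 to 5 without single libraries. The cause of these shifts was not tested. Deviations of same-numbered libraries correlated at 0.07, 0.01 and 0.04, against -0.115 to 0.0711 for differently numbered ones. With 3 libraries in each group, such weak values cannot show whether the shared replicate numbers pair the libraries. With the replicate block, 1703 genes were higher and 1552 lower, 28 and 5 of them proteasome genes, and 13 partner genes were higher and 5 lower; Psma5, Psmd11 and Irf8 did not pass there (0.0663, 0.0766 and 0.0891). Depth limits the untested genes, Psma8, Psmb11 and Ifng, to statements of their counts.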
